A study of Mus musculus with 30 samples.

Results

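The NRF2 pathway was followed through 10 genes, chosen by symbol: Nfe2l2, Keap1, Nqo1, Hmox1, Gclc, Gclm, Txnrd1, Srxn1, Prdx1 and Gsr. They are 10 of the 39253 genes in the deposited count table, and all 10 passed the filter on low counts that left 13008 genes for testing. RNA had been sequenced from 4T1 cells, a BALB/c-derived mouse mammary carcinoma line. The cells had been cultured for 48 or 72 h with small extracellular vesicles (sEVs) of primary neutrophils, which had themselves been kept for 48 h with either DMSO, the vehicle, or 10 µM 27-hydroxycholesterol (27HC), an oxysterol formed from cholesterol. Ly6G-positive neutrophils of wild-type female BALB/c mice were the source of the vesicles. The 6 groups were adherent cells under DMSO-sEVs, adherent cells under 27HC-sEVs and non-adherent cells under 27HC-sEVs, each at 48 and at 72 h. Each group was made of 5 libraries, apart from the detached fraction of 72 h with 4. There was no group without vesicles and no non-adherent group under DMSO-sEVs, so where detached 27HC-sEV cells are set against DMSO-sEV cells the vesicle and the detachment cannot be told apart. All data come from a single cell line.

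NRF2, encoded by Nfe2l2, is a transcription factor that pairs with small MAF proteins and binds antioxidant response elements in the promoters of genes for detoxification, glutathione synthesis and thiol reduction. KEAP1 holds NRF2 in the cytosol and presents it to a CUL3 ubiquitin ligase, and electrophiles or oxidants that modify KEAP1 let newly made NRF2 escape degradation. Much of this control acts on protein stability, which mRNA levels do not measure. In carcinoma cells the pathway is known for protecting against peroxides and for supplying glutathione and NADPH.

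The antioxidant response element core, TGACNNNGC, was searched for on both strands in RefSeq promoter windows, each running from 250 bases before to 50 bases after a gene's start (build GRCm38.p6). Of the 10 genes, 7 had an entry, with 9 windows between them, and 5 genes held the core in 1 window each: Nfe2l2, Gclm, Txnrd1, Srxn1 and Prdx1. Those 5 windows are shown because they carry the letters that define a candidate NRF2 element. The same core occurs in 12.4% of all 32851 windows of that length and, counted by gene, in 14% of 27025 genes. Capitals mark the match, and a match describes letters in the window, not a bound site. The windows lie at chr2:75704614-75704913 on the minus strand for Nfe2l2, chr3:122245307-122245606 on the plus strand for Gclm, chr10:82858956-82859255 on the plus strand for Txnrd1, chr2:152105274-152105573 on the plus strand for Srxn1 and chr4:116685349-116685648 on the plus strand for Prdx1. Each is printed in the direction of its gene.
Nfe2l2: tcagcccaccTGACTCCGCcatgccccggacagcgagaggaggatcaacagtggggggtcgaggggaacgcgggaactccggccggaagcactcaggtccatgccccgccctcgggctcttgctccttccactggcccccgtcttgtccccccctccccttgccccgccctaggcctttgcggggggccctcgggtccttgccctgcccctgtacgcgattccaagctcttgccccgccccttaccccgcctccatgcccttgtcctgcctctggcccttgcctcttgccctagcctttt
Gclm: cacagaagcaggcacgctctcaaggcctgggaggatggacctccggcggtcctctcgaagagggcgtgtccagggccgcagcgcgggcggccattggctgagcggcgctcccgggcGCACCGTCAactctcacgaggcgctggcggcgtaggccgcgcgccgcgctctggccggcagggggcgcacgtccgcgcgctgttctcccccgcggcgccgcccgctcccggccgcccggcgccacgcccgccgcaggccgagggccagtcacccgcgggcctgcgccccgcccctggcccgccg
Txnrd1: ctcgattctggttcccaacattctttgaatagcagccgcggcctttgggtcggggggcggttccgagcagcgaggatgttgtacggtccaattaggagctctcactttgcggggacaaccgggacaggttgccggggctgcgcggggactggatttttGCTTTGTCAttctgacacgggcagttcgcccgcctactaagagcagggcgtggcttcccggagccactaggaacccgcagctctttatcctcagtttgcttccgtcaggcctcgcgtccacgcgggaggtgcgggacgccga
Srxn1: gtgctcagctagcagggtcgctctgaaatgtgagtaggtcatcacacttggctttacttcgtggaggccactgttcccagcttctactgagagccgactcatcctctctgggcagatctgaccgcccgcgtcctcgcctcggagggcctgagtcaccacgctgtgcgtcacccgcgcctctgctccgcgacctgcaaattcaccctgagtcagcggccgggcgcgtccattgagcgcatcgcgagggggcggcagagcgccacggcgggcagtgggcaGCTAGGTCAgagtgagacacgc
Prdx1: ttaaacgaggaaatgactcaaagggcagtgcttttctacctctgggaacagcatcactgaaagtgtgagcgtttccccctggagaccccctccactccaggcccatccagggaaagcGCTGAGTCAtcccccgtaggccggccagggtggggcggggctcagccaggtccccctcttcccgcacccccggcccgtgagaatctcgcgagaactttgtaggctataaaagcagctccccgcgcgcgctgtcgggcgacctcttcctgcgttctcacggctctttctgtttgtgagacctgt
In Nfe2l2 the core reads forward, as TGACTCCGC, 240 to 232 bases before the start. The other 4 matches read on the opposite strand, so the printed letters are the reverse complement: GCACCGTCA at 134 to 126 bases before the start of Gclm, GCTTTGTCA at 92 to 84 before the second listed start of Txnrd1, GCTAGGTCA at 29 to 37 bases after the start of Srxn1, and GCTGAGTCA at 133 to 125 before the start of Prdx1. The core was not found in the windows of Keap1 and Nqo1. Hmox1, Gclc and Gsr had no entry and were not searched, and elements outside the windows were not looked for in any gene. The 5 genes with the core did not share a direction in the data below, since Nfe2l2, Gclm, Txnrd1 and Srxn1 rose and Prdx1 fell in adherent 27HC-sEV cells at 72 h.

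A library held between 18.8 and 31.4 M reads in estimated counts, and no libraries were duplicates. Within the DMSO-sEV groups, replicates 1 to 3 and replicates 4 and 5 stood apart: their values did not overlap for 58.0% of genes at 48 h and 67.4% at 72 h. Fold changes also moved with transcript length. In adherent 27HC-sEV against DMSO-sEV cells at 72 h the median log2 fold change was -0.26 over genes of at most 2159 bases and 0.21 over those of at least 4758, against -0.02 and 0.03 at 48 h. In non-adherent against adherent cells those medians were -0.25 and 0.20 at 48 h and -0.16 and 0.14 at 72 h. Many results of the 10 genes that these features moved are given below also with DMSO-sEV replicates 1 to 3 or 4 and 5 alone. Others are given with offsets per library for length and GC content. Single genes named from the related lists are given without these alternatives, and counts of those lists with them only where stated. All 8 mammary tumour line markers were present in every library, with a summed level of 4340 to 6530 CPM, the count scaled to the library's size. Of 20 neutrophil markers, Ly6g, Mpo, Elane, Ctsg, Csf3r and Mmp8 were at 0 in all 29 libraries. The summed level of the neutrophil list was 177 to 296 CPM in DMSO-sEV, 66.1 to 116 in adherent 27HC-sEV and 102 to 213 in non-adherent cells. In DMSO-sEV cells Mmp9 carried most of that sum, and it fell from means of 227 to 52.5 CPM at 48 h and from 167 to 32.2 CPM at 72 h in adherent 27HC-sEV against DMSO-sEV cells. Of the 5 markers high enough to test, 2 rose and 2 fell at 48 h and 3 rose and 2 fell at 72 h. The rises at 72 h were Lcn2 (7.06-fold, from 8.60 to 60.4 CPM) and, at low levels, S100a8 and Il1b. S100a8 rose 3.89-fold, from 0.287 to 1.13 CPM, and Il1b 1.87-fold, from 0.849 to 1.6 CPM. Of 12 macrophage markers, Adgre1, C1qa, C1qb, C1qc and Marco were at 0 throughout, and the summed level was 9.84 to 14.2 CPM in DMSO-sEV, 13.7 to 23.7 in adherent and 15.7 to 21.9 in non-adherent 27HC-sEV cells. A list of 10 fibroblast markers summed to 26.1 to 53.5 CPM, with Col3a1 and Thy1 at 0 in all libraries. The part of these lists in the results below was not tested.

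Across the 10 genes, Hmox1 changed most, and at 72 h most were higher under 27HC-sEVs. In adherent cells at 48 h 5 of the 10 rose (Nfe2l2, Nqo1, Hmox1, Txnrd1 and Srxn1), 2 fell (Gclm and Gsr) and 3 did not pass an adjusted p of 0.05, in a comparison in which 44.0% of all genes tested passed. At 72 h 7 rose, Gclc and Gclm joining the former 5, and 2 fell (Prdx1 and Gsr), where 65.3% of all genes passed. The median log2 fold change of the 10 was 0.09 at 48 h and 0.25 at 72 h, against -0.0015 and 0.0015 for all genes tested. With so many genes passing, sizes and directions carry more than the counts. In all, 5.10% of genes at 48 h and 9.97% at 72 h passed with at least a 2-fold change, and Hmox1 was the 1 gene of the 10 that did so, at both times. The libraries of the groups did not overlap for 5 of the 10 genes at 48 h and 7 at 72 h, against 30.5% and 43.3% of all genes. A rise was called for 21.3% of all genes at 48 h and 32.0% at 72 h, and a fall for 22.7% and 33.4%.

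**Figure D1:**
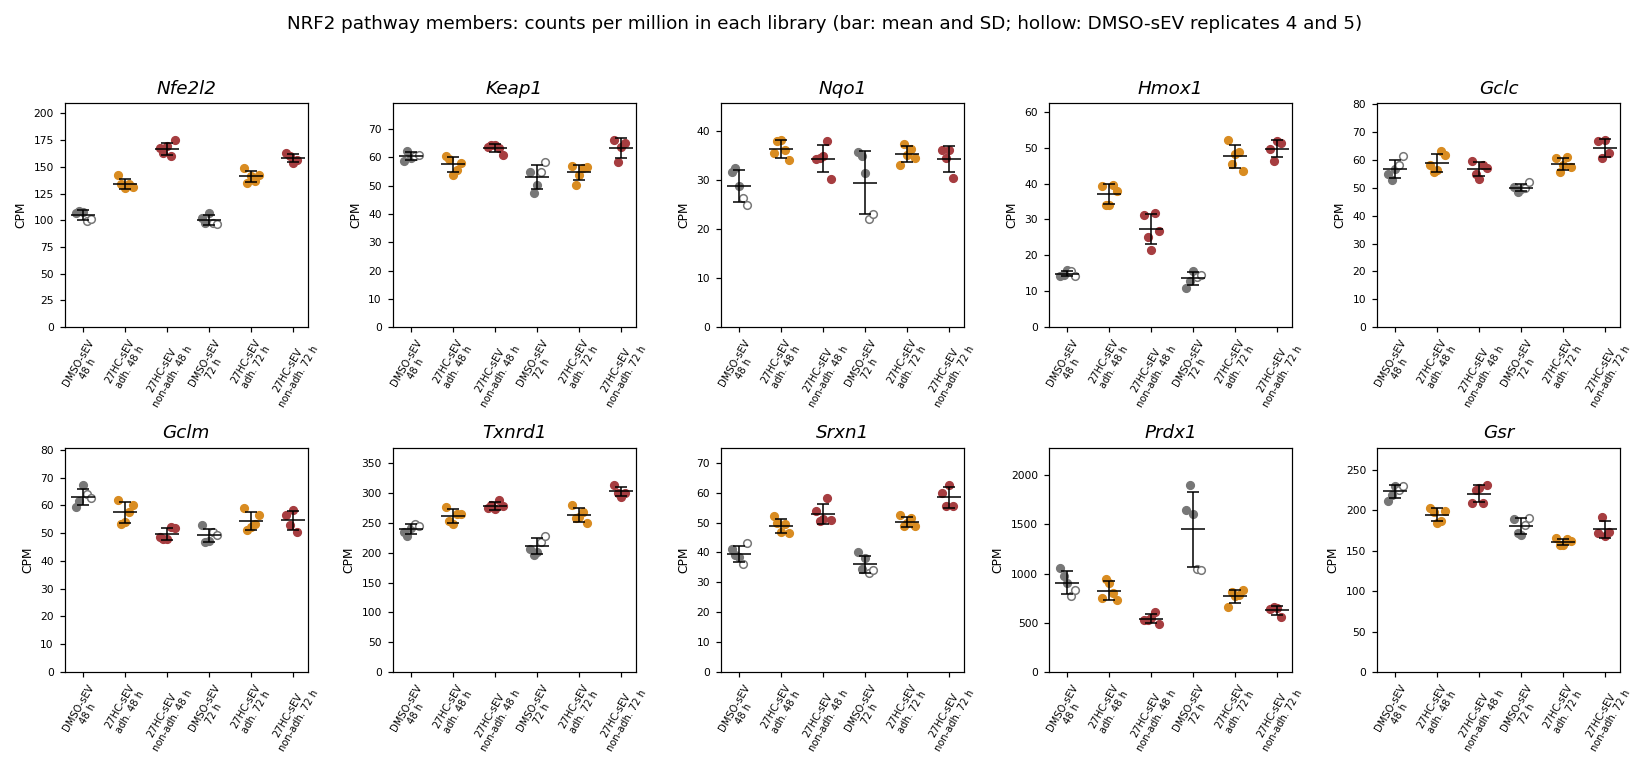
CPM of each of the 10 genes in every library (y axes from 0), by group (x axes), with a bar for the mean and SD and hollow points for DMSO-sEV replicates 4 and 5. Hmox1 runs from means of 14.9 and 13.6 CPM under DMSO-sEVs to 37.0 and 47.6 in adherent and 27.3 and 49.7 in non-adherent 27HC-sEV cells, and the hollow points of Nqo1 and Prdx1 lie below the filled ones of the same group.

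**Figure D2:**
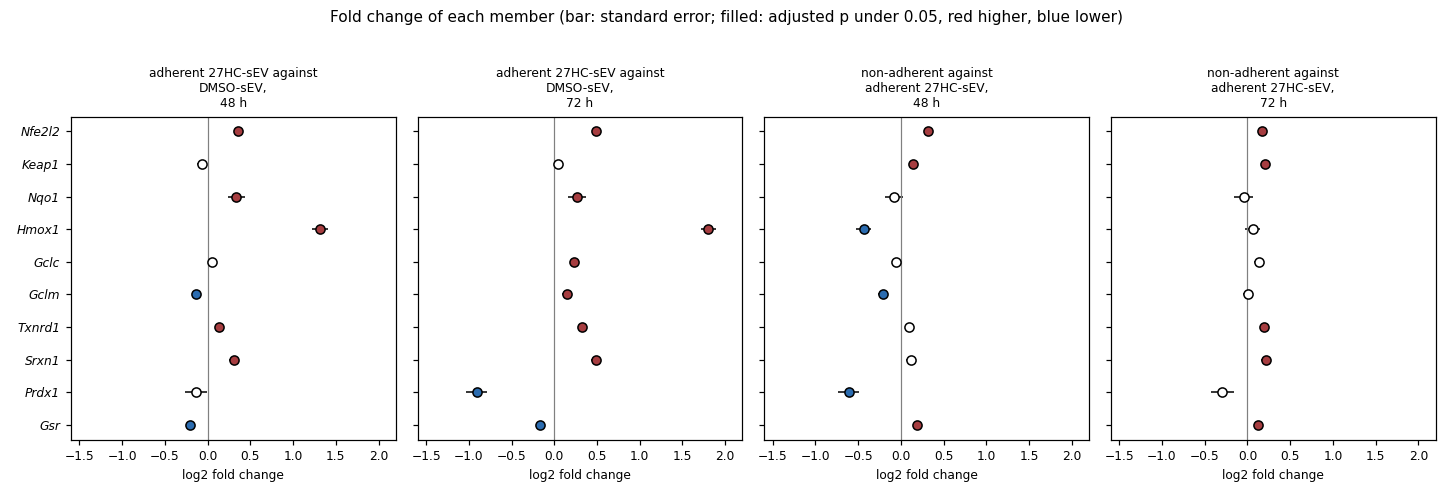
Log2 fold change (x axes) of the 10 genes in adherent 27HC-sEV against DMSO-sEV cells and in non-adherent against adherent 27HC-sEV cells at 48 and 72 h, with bars for the standard error and filled points for an adjusted p under 0.05. Hmox1 lies at 1.32 and 1.80 in the comparisons with DMSO-sEV cells, and every filled point of non-adherent against adherent cells at 72 h is above 0.

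Nfe2l2, the gene of NRF2 itself, was higher in every comparison with DMSO-sEV cells and higher again in non-adherent than in adherent cells. Its 5 libraries of DMSO-sEV cells at 48 h held 107, 109, 108, 99.3 and 101 CPM, and adherent 27HC-sEV cells held 142, 134, 130, 134 and 131 CPM. Non-adherent cells at 48 h held 168, 163, 169, 160 and 175 CPM. The groups formed 3 steps with no overlap at 48 h. On the log2 scale the difference was 0.35 (SE 0.04, adjusted p = 3.4e-08) for adherent 27HC-sEV against DMSO-sEV cells and 0.31 (SE 0.04, adjusted p = 5.5e-07) for non-adherent against adherent cells, the latter 0.52 with length and GC offsets. In bulk RNA fewer cells of a kind and less RNA per cell cannot be told apart.

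The same order of Nfe2l2 stood at 72 h. DMSO-sEV cells held 102, 97.0, 107, 97.4 and 96.4 CPM, adherent 27HC-sEV cells 149, 135, 141, 137 and 142 CPM, and non-adherent cells 163, 160, 154 and 156 CPM. Again no library of a group overlapped the next group. Adherent cells were 1.41-fold above DMSO-sEV cells (log2 0.49, SE 0.04, adjusted p = 3.2e-11), and non-adherent cells 1.12-fold above adherent cells (log2 0.17, SE 0.04, adjusted p = 0.0066). The latter call was lost without the filter on low counts (adjusted p = 0.092), and with length and GC offsets the difference was 0.31. Time moved Nfe2l2 little: the change from 48 to 72 h was -0.07 in DMSO-sEV, 0.07 in adherent and -0.08 in non-adherent cells, with adjusted p of 0.15, 0.32 and 0.26. In DMSO-sEV cells the offsets turned the first of these into a called fall (-0.26, adjusted p = 1.7e-04).

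Keap1, which encodes the sensor that marks NRF2 for degradation, varied least of the 10 genes, over a range of 0.25 log2 units between group means, a range exceeded by all but 7.59% of genes tested. Its levels were 58.6 to 62.2 CPM in DMSO-sEV cells at 48 h, 53.9 to 60.5 in adherent and 61.0 to 64.4 in non-adherent 27HC-sEV cells. At 72 h they were 47.5 to 58.4, 50.4 to 57.0 and 58.5 to 66.1 CPM. Adherent 27HC-sEV cells overlapped DMSO-sEV cells at both times (log2 -0.07 and 0.04, adjusted p = 0.26 and 0.47), while non-adherent cells lay above adherent cells at both (0.14 and 0.21, adjusted p = 0.019 and 0.0068). These calls rest on the scaling. With length and GC offsets the difference at 48 h turned to -0.11 (adjusted p = 0.034) and that at 72 h shrank to 0.04 (adjusted p = 0.50), and adherent against DMSO-sEV cells at 72 h turned to -0.29 (adjusted p = 6.1e-07). Without replicate 3 of adherent 27HC-sEV cells at 48 h the difference of non-adherent from adherent cells was 0.12 (adjusted p = 0.062). No direction of Keap1 is therefore firm in these libraries.

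Hmox1, which encodes heme oxygenase 1, the enzyme that cleaves heme to biliverdin, carbon monoxide and iron, rose most of the 10 genes. DMSO-sEV cells at 48 h held 14.3, 14.5, 15.8, 15.5 and 14.2 CPM, and adherent 27HC-sEV cells 39.4, 33.9, 34.0, 39.6 and 37.8 CPM. At 72 h DMSO-sEV cells held 11.0, 12.9, 15.7, 14.0 and 14.6 CPM, and adherent 27HC-sEV cells 52.1, 45.4, 48.1, 48.7 and 43.6 CPM. Every 27HC-sEV library lay above every DMSO-sEV library at both times. The rise was 2.49-fold at 48 h (log2 1.32, SE 0.09, adjusted p = 8.7e-13) and 3.49-fold at 72 h (log2 1.80, SE 0.09, adjusted p = 7.9e-16). The rise was larger at 72 h by 0.49 log2 units (SE 0.13, adjusted p = 0.0034), a difference that did not pass with DMSO-sEV replicates 4 and 5 alone (0.42, adjusted p = 0.058).

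Between the 27HC-sEV fractions, Hmox1 was lower in non-adherent cells at 48 h, and by 72 h the fractions overlapped. Non-adherent cells held 31.1, 25.2, 21.6, 31.9 and 26.9 CPM at 48 h, all below the adherent libraries, and 49.5, 46.4, 51.8 and 51.2 CPM at 72 h, within the range of the adherent libraries. The difference of non-adherent from adherent cells was -0.44 at 48 h (SE 0.09, adjusted p = 1.6e-04) and 0.06 at 72 h (SE 0.09, adjusted p = 0.61). With length and GC offsets the former was -0.21 and did not pass (adjusted p = 0.11). From 48 to 72 h Hmox1 rose in adherent 27HC-sEV cells by 0.36 (SE 0.08, adjusted p = 0.0034) and in non-adherent cells by 0.86 (SE 0.09, adjusted p = 1.5e-07), and in DMSO-sEV cells its change was -0.12 (adjusted p = 0.28). The difference between the fractions therefore changed with time by 0.50 (SE 0.12, adjusted p = 0.016), which was not called with the offsets (0.42, adjusted p = 0.11). Over the 6 group means Hmox1 spanned 1.87 log2 units, more than 95.0% of genes tested, whose median span was 0.69.

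Nqo1, which encodes the quinone reductase often used as a marker of NRF2 activity, was higher in adherent 27HC-sEV cells, but the amount depended on which control libraries were used. DMSO-sEV cells at 48 h held 31.7, 32.5, 28.9, 26.3 and 24.9 CPM, and adherent 27HC-sEV cells 35.5, 38.0, 38.2, 36.2 and 34.1 CPM. At 72 h DMSO-sEV cells held 35.7, 34.9, 31.4, 22.0 and 23.2 CPM, and adherent 27HC-sEV cells 33.2, 37.4, 35.2, 36.4 and 34.6 CPM. The groups did not overlap at 48 h, whereas at 72 h the control libraries 1 and 2 reached into the 27HC-sEV range. The log2 fold change was 0.33 at 48 h (SE 0.10, adjusted p = 0.0084) and 0.27 at 72 h (SE 0.10, adjusted p = 0.023). With length and GC offsets the latter was 0.60. Against control replicates 4 and 5 alone, at 24.9 to 26.3 CPM, the former was 0.52. Control replicates 1 to 3 at 48 h, at 28.9 to 32.5 CPM, lay nearer the 27HC-sEV libraries. At 72 h the log2 fold change was 0.05 (adjusted p = 0.49) against DMSO-sEV replicates 1 to 3 alone. It was 0.66 (adjusted p = 1.4e-07) against replicates 4 and 5 alone. The call was lost without replicate 4 (0.18, adjusted p = 0.098) or replicate 5 (0.19, adjusted p = 0.089) of the controls.

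Non-adherent cells held 30.2 to 38.1 CPM of Nqo1 at 48 h and 30.4 to 36.1 at 72 h, overlapping adherent cells at both times. Against adherent cells the differences were -0.08 and -0.04 (adjusted p = 0.52 and 0.77). With length and GC offsets they turned to 0.24 (adjusted p = 4.0e-04) and 0.17 (adjusted p = 0.026). Against DMSO-sEV cells Nqo1 was 0.26 higher in non-adherent cells at 48 h (SE 0.10, adjusted p = 0.029), a call lost without replicate 4 or 5 of the controls or replicate 4 of the non-adherent cells (adjusted p = 0.070 to 0.086), and 0.22 at 72 h without passing (SE 0.11, adjusted p = 0.065), which passed when control replicate 1, 2 or 3 or non-adherent replicate 4 was left out (adjusted p = 0.0095 to 0.040). With the offsets these were 0.54 and 0.77.

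The glutathione genes moved by small amounts and in different directions. Gclc encodes the catalytic subunit and Gclm the modifier subunit of glutamate-cysteine ligase, the rate-limiting enzyme of glutathione synthesis, and Gsr encodes glutathione reductase, which returns oxidised glutathione to its reduced form at the cost of NADPH. Gclc held 50.3, 48.5, 49.5, 50.1 and 52.1 CPM in DMSO-sEV cells at 72 h and 60.6, 55.9, 58.4, 61.1 and 57.6 CPM in adherent 27HC-sEV cells. These libraries did not overlap, and Gclc was 1.17-fold higher in the latter (log2 0.23, SE 0.05, adjusted p = 1.2e-04). At 48 h the groups overlapped, at 52.8 to 61.4 and 55.9 to 63.1 CPM (log2 0.06, SE 0.05, adjusted p = 0.35). The low level at 72 h was in the controls, where Gclc fell by 0.18 from 48 to 72 h (adjusted p = 0.0020), while in adherent 27HC-sEV cells its change was -0.01 (adjusted p = 0.93). Non-adherent cells held 53.3 to 59.8 CPM at 48 h and 60.6 to 67.2 at 72 h, a rise of 0.18 (SE 0.05, adjusted p = 0.015) that did not pass without replicate 1 or 3 of the 72 h libraries (adjusted p = 0.064 and 0.067). Against adherent cells the differences of Gclc were -0.06 at 48 h and 0.13 at 72 h (adjusted p = 0.27 and 0.052). The latter passed without non-adherent replicate 2 or adherent replicate 1 or 4 (adjusted p = 0.042 to 0.049) and with the offsets (0.19, adjusted p = 0.0145).

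Gclm went the other way at 48 h and with Gclc at 72 h. Its libraries held 59.4, 61.6, 67.4, 64.2 and 62.6 CPM in DMSO-sEV cells at 48 h, 62.0, 53.3, 54.2, 57.8 and 60.3 CPM in adherent and 48.8, 48.0, 47.8, 52.3 and 52.0 CPM in non-adherent 27HC-sEV cells. Non-adherent cells lay below both other groups with no overlap, while the DMSO-sEV and adherent 27HC-sEV libraries overlapped. Gclm was 0.21 lower in non-adherent than in adherent cells (SE 0.05, adjusted p = 0.0018) and 0.34 lower than in DMSO-sEV cells (SE 0.05, adjusted p = 2.8e-06). The difference of adherent 27HC-sEV from DMSO-sEV cells was -0.13 (SE 0.05, adjusted p = 0.045). That call was lost in 7 of the 10 fits without 1 library, those without control replicate 2, 3, 4 or 5 or 27HC-sEV replicate 2, 3 or 4 (adjusted p = 0.058 to 0.20). By 72 h Gclm had fallen in DMSO-sEV cells by 0.35 (SE 0.05, adjusted p = 5.3e-06), to 47.0 to 52.8 CPM, and the adherent 27HC-sEV cells stood at 51.2 to 59.1 CPM. The difference was then 0.14 (SE 0.05, adjusted p = 0.020), lost without replicate 1 of the 27HC-sEV cells (0.11, adjusted p = 0.075) and with control replicates 4 and 5 alone (0.15, adjusted p = 0.058). Non-adherent cells held 50.6 to 58.3 CPM at 72 h, 0.15 above DMSO-sEV cells (SE 0.06, adjusted p = 0.022), which did not pass without non-adherent replicate 1 or 3 (adjusted p = 0.064 and 0.096). Against adherent cells at 72 h the difference was 0.0027 (adjusted p = 0.975).

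Gsr was lower in adherent 27HC-sEV cells and lower at 72 h than at 48 h in all 3 kinds of cell. DMSO-sEV cells held 211, 219, 230, 225 and 230 CPM at 48 h, adherent 27HC-sEV cells 202, 198, 184, 186 and 199 CPM, and non-adherent cells 209, 225, 227, 209 and 231 CPM. At 72 h the ranges were 169 to 190, 157 to 165 and 168 to 191 CPM. At both times the adherent 27HC-sEV libraries lay below every library of the other groups at the same time. Against DMSO-sEV cells Gsr fell by 0.20 at 48 h (SE 0.05, adjusted p = 5.3e-04) and by 0.16 at 72 h (SE 0.05, adjusted p = 0.0029), the latter not called with length and GC offsets (-0.08, adjusted p = 0.20). Non-adherent cells were 0.19 above adherent cells at 48 h (SE 0.05, adjusted p = 0.0013), or 0.30 with the offsets. At 72 h they were 0.13 above (SE 0.05, adjusted p = 0.048), a call lost in 8 of the 9 fits without 1 library (adjusted p = 0.051 to 0.19), the exception being adherent replicate 1. The fall from 48 to 72 h was -0.31 in DMSO-sEV, -0.27 in adherent and -0.32 in non-adherent 27HC-sEV cells (adjusted p = 3.9e-06, 1.4e-04 and 3.2e-05).

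The thiol-reduction genes split, with Txnrd1 and Srxn1 up and Prdx1 down. Txnrd1 encodes cytosolic thioredoxin reductase, Prdx1 a peroxiredoxin that reduces hydrogen peroxide, and Srxn1 sulfiredoxin, which repairs over-oxidised peroxiredoxins. Srxn1 held 41.1, 39.2, 38.6, 36.1 and 43.2 CPM in DMSO-sEV cells at 48 h and 52.2, 49.8, 46.7, 49.4 and 46.5 CPM in adherent 27HC-sEV cells. At 72 h DMSO-sEV cells held 40.1, 34.6, 38.1, 33.2 and 34.1 CPM and adherent 27HC-sEV cells 52.5, 48.8, 49.7, 51.5 and 48.9 CPM. No 27HC-sEV library overlapped a control. Srxn1 was 1.23-fold higher at 48 h (log2 0.30, SE 0.06, adjusted p = 7.7e-05) and 1.40-fold at 72 h (log2 0.48, SE 0.06, adjusted p = 3.3e-08). Non-adherent cells stood at 50.6 to 58.2 CPM at 48 h and 55.5 to 62.6 at 72 h. They overlapped adherent cells at 48 h (0.11, adjusted p = 0.092) and lay above them at 72 h (0.22, SE 0.06, adjusted p = 0.012). That call was lost without non-adherent replicate 3 (0.18, adjusted p = 0.052) and without the filter on low counts. From 48 to 72 h Srxn1 changed by 0.14 in non-adherent cells (adjusted p = 0.12), which passed without replicate 4 at 48 h (0.18, adjusted p = 0.046).

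Txnrd1 followed Srxn1 with smaller steps at 48 h. Its libraries held 235, 228, 242, 248 and 245 CPM in DMSO-sEV cells at 48 h and 277, 253, 248, 265 and 265 CPM in adherent 27HC-sEV cells, and 207, 196, 202, 219 and 229 against 281, 258, 261, 269 and 250 CPM at 72 h. The groups touched at 48 h and were apart at 72 h. The log2 fold change was 0.13 at 48 h (SE 0.04, adjusted p = 0.021), lost without 27HC-sEV replicate 1 (0.11, adjusted p = 0.070) and with control replicates 4 and 5 alone (0.10, adjusted p = 0.089), and 0.32 at 72 h (SE 0.04, adjusted p = 4.3e-07). Non-adherent cells reached 273 to 289 CPM at 48 h and 294 to 314 CPM at 72 h. They were 0.09 above adherent cells at 48 h (SE 0.04, adjusted p = 0.079), which passed without adherent replicate 1 (0.12, adjusted p = 0.042). At 72 h they were 0.20 above with no overlap (SE 0.05, adjusted p = 0.0047), a call lost without the filter on low counts. RefSeq places a non-coding gene and Eid3 within the span of the Txnrd1 locus. Whether the counts keep their reads apart was not tested.

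Prdx1 fell in adherent 27HC-sEV cells at 72 h and in non-adherent cells, and it is the gene most tied to the split of the control libraries. DMSO-sEV cells held 1060, 972, 907, 768 and 835 CPM at 48 h and adherent 27HC-sEV cells 750, 941, 906, 806 and 731 CPM, and the groups overlapped (log2 -0.14, SE 0.13, adjusted p = 0.40). That difference passed against control replicates 1 to 3 alone (-0.25, adjusted p = 0.019) and with the offsets (-0.17, adjusted p = 0.029). At 72 h the controls held 1650, 1900, 1600, 1050 and 1040 CPM, and adherent 27HC-sEV cells 662, 809, 769, 778 and 834 CPM. The 27HC-sEV libraries were all below the controls, and control replicates 4 and 5 lay between. The log2 fold change at 72 h was -0.91 (SE 0.13, adjusted p = 4.2e-07). It was -1.16 against control replicates 1 to 3 alone and -0.43 (adjusted p = 6.5e-04) against replicates 4 and 5 alone, and -0.54 (adjusted p = 2.7e-08) with length and GC offsets.

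Non-adherent cells held 531, 528, 548, 613 and 485 CPM of Prdx1 at 48 h, below every adherent library, and 640, 662, 651 and 562 CPM at 72 h, where the highest stood at the level of the lowest adherent library. Against adherent cells Prdx1 fell by 0.61 at 48 h (SE 0.13, adjusted p = 2.4e-04; -0.33 with the offsets) and its difference at 72 h was -0.29 (SE 0.13, adjusted p = 0.094). At 72 h that value was -0.093 (adjusted p = 0.33) with the offsets, and it passed with a block on the replicate number (-0.34, adjusted p = 0.027). From 48 to 72 h it rose by 0.67 in DMSO-sEV cells (SE 0.13, adjusted p = 7.7e-05), or by 0.39 in control replicates 4 and 5 alone and 0.29 with the offsets. Its changes with time in the adherent and non-adherent 27HC-sEV cells were -0.10 and 0.22 and did not pass (adjusted p = 0.69 and 0.31). A non-coding gene overlaps Prdx1 in RefSeq, as a non-coding gene and a pseudogene do Gclm and a small nucleolar RNA and a pseudogene do Gsr. The overlap is of whole gene spans, not of exons, and whether the counts separate these genes was not tested.

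In non-adherent against adherent cells at 48 h, 3 of the 10 genes were higher (Nfe2l2, Keap1 and Gsr) and 3 lower (Hmox1, Gclm and Prdx1). Of all genes tested 54.1% passed, 25.7% up and 28.4% down. Whether detaching changed a gene, or cells with such levels detached, cannot be told apart here. At 72 h 5 were higher in non-adherent cells (Nfe2l2, Keap1, Txnrd1, Srxn1 and Gsr), with 27.5% of all genes passing, 14.7% up and 12.8% down. The other 5 did not pass, and without the filter on low counts none of the 10 was called at 72 h. The libraries of the fractions did not overlap for 6 of the 10 genes at 48 h and 5 at 72 h, against 42.3% and 34.3% of all genes. The direction of Keap1 flipped at 48 h with the offsets, as given above. Against DMSO-sEV cells, non-adherent cells had 5 rises and 2 falls at 48 h (66.5% of genes passed) and 7 rises and 1 fall at 72 h (74.5%). At 48 h the rises were Hmox1 at 0.88 (SE 0.09), Nfe2l2 at 0.67 (SE 0.04), Srxn1 at 0.42 (SE 0.06), Txnrd1 at 0.22 (SE 0.04) and Nqo1 as given above, the falls were Gclm as above and Prdx1 at -0.75 (SE 0.13, or -0.50 with the offsets), and Keap1, Gclc and Gsr stood at 0.07, -0.0058 and -0.02 without passing. The largest at 72 h were Hmox1 at 1.87 (SE 0.09), Prdx1 at -1.20 (SE 0.14), Srxn1 at 0.70 (SE 0.06), Nfe2l2 at 0.66 (SE 0.04) and Txnrd1 at 0.52 (SE 0.05). With the offsets Nfe2l2 was at 1.01 and Prdx1 at -0.63, and Keap1, at 0.25 (SE 0.05), turned to -0.25. Gclc was 0.36 higher at 72 h (SE 0.05), and Gsr, at -0.03, did not pass. These comparisons share their control or adherent libraries with those above.

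With time, 7 of the 10 genes moved in DMSO-sEV cells: Keap1, Gclc, Gclm, Txnrd1, Srxn1 and Gsr fell and Prdx1 rose, among 51.6% of all genes that passed. In adherent 27HC-sEV cells 2 moved, Hmox1 up and Gsr down (13.1% of genes passed), and in non-adherent cells 3, Hmox1 and Gclc up and Gsr down (12.6%). Nqo1 changed by 0.02, -0.04 and -0.0079 in DMSO-sEV, adherent and non-adherent cells, none of which passed, though with the offsets the first was a called fall of -0.34 (adjusted p = 7.1e-06). Of the other genes that did not pass, Keap1 changed by -0.07, Gclm by -0.08, Txnrd1 by 0.01 and Srxn1 by 0.04 in adherent 27HC-sEV cells, and Keap1 by -0.00039, Gclm by 0.13 and Txnrd1 by 0.12 in non-adherent cells. With the offsets Keap1 passed in adherent cells (-0.12, adjusted p = 0.046), and Gclm (0.17, adjusted p = 0.022) and Txnrd1 (0.13, adjusted p = 0.034) in non-adherent cells. The falls in DMSO-sEV cells were -0.18 for Keap1, -0.18 for Txnrd1 and -0.14 for Srxn1, with adjusted p of 0.0034, 0.0012 and 0.045. Of these, Keap1 took the opposite sign with the offsets (0.088, adjusted p = 0.092) and did not pass with control replicates 4 and 5 alone (-0.09, adjusted p = 0.36), nor did Txnrd1 (-0.13, adjusted p = 0.097). The call of Srxn1 was lost with the offsets (-0.072, adjusted p = 0.275) and with control replicates 1 to 3 alone (-0.08, adjusted p = 0.33), and in 6 of the 10 fits without 1 library, those without replicate 1, 2 or 5 at 48 h or 2, 4 or 5 at 72 h (adjusted p = 0.065 to 0.14). Labels share replicate numbers, and deviations of the DMSO-sEV libraries correlated by number between the times, though both times also share the split of replicates 1 to 3 from 4 and 5. A block on the number changed no call among these 7.

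**Figure D3:**
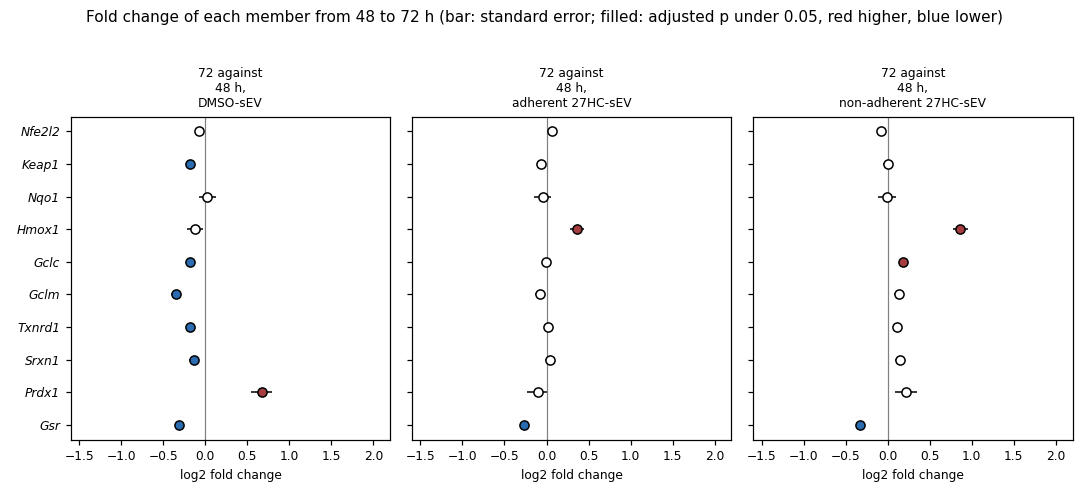
Log2 fold change from 48 to 72 h (x axes) of the 10 genes in DMSO-sEV, adherent 27HC-sEV and non-adherent 27HC-sEV cells, with bars for the standard error and filled points for an adjusted p under 0.05. The left panel has 7 filled points, 6 of them below 0 and Prdx1 at 0.67, while Hmox1 is at 0.36 and 0.86 in the 27HC-sEV panels.

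The effect of 27HC-sEVs on adherent cells itself changed between 48 and 72 h for 5 of the 10 genes, in a test of that difference that 37.3% of all genes passed. Gclm changed by 0.27 (SE 0.08, adjusted p = 0.0053), Txnrd1 by 0.20 (SE 0.06, adjusted p = 0.016) and Gclc by 0.17 (SE 0.07, adjusted p = 0.041), all towards higher values at 72 h, as did Hmox1. Prdx1 changed by -0.77 (SE 0.18, adjusted p = 0.0012), or by -0.49 with control replicates 4 and 5 alone and -0.37 with the offsets. The call of Gclc was lost in 12 of 20 fits without 1 library (adjusted p = 0.051 to 0.090), the 8 that kept it being those without control replicate 1 or 2 at 48 h or 4 or 5 at 72 h or without 27HC-sEV replicate 4 or 5 at 48 h or 2 or 5 at 72 h. Txnrd1 did not pass with the offsets (0.14, adjusted p = 0.058) or with control replicates 4 and 5 alone (0.15, adjusted p = 0.10). Nfe2l2 came near (0.14, SE 0.06, adjusted p = 0.060), was called with the offsets at 0.35 (adjusted p = 5.6e-04), and passed in 5 fits without 1 library (adjusted p = 0.031 to 0.048), those without control replicate 4 or 5 at 48 h or 3 at 72 h or 27HC-sEV replicate 1 at 48 h or 2 at 72 h. Srxn1, at 0.18 (SE 0.08, adjusted p = 0.082), passed without control replicate 4 at 48 h or 1 at 72 h (adjusted p = 0.046 and 0.035) and with control replicates 4 and 5 alone (0.28, adjusted p = 0.041), whereas with the offsets it was 0.09 (adjusted p = 0.37). Keap1, Nqo1 and Gsr, at 0.11, -0.07 and 0.04, did not pass (adjusted p = 0.22, 0.745 and 0.64), and with the offsets Keap1 turned to -0.21 (adjusted p = 0.0082) and Nqo1 to 0.31 (adjusted p = 0.0019). For the difference between the fractions, Hmox1 was the 1 gene of the 10 to change with time, and 4.60% of all genes did. Which gene passed depended on the setting: with the offsets Hmox1 did not, as given above, and Gclm did, at 0.24 (adjusted p = 0.042), beside 0.21 (adjusted p = 0.13) without them. The other changes were -0.14 for Nfe2l2, 0.07 for Keap1, 0.03 for Nqo1, 0.19 for Gclc, 0.10 for both Txnrd1 and Srxn1, 0.32 for Prdx1 and -0.06 for Gsr, with adjusted p of 0.12 to 0.94.

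**Figure D4:**
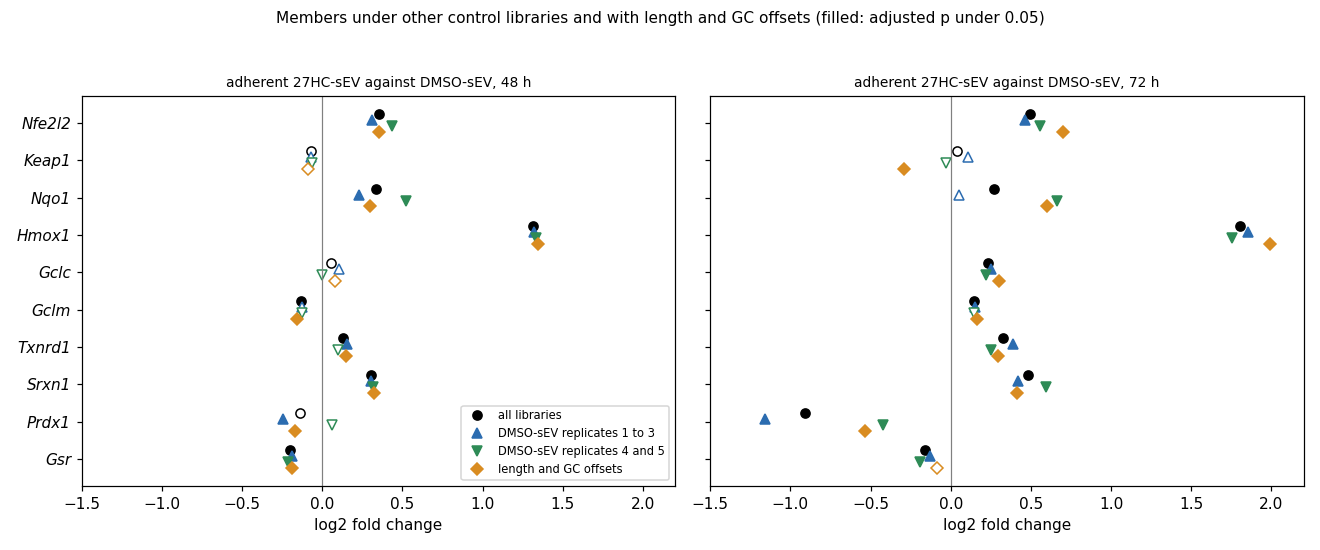
Log2 fold change (x axes) of the 10 genes in adherent 27HC-sEV against DMSO-sEV cells at 48 and 72 h, with all libraries, with DMSO-sEV replicates 1 to 3 or 4 and 5 alone, and with length and GC offsets; filled symbols have an adjusted p under 0.05. Hmox1, Nfe2l2 and Srxn1 stay on the right in every setting shown, whereas Nqo1 runs from 0.05 to 0.66 and Prdx1 from -1.16 to -0.43 at 72 h.

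Ordered by group mean, the genes differed in which neighbouring groups were apart. Nfe2l2 was highest in non-adherent cells, then adherent 27HC-sEV cells, then DMSO-sEV cells, with the times of each overlapping and the 3 kinds of cell separate. Hmox1 ran from non-adherent and adherent 27HC-sEV cells at 72 h, which overlapped, to adherent cells at 48 h, to non-adherent cells at 48 h, to DMSO-sEV cells, whose times overlapped. In Srxn1 the 4 groups under 27HC-sEVs overlapped their neighbours and stood above both control groups. For Txnrd1 only the highest group, non-adherent cells at 72 h, was apart from the next. Gsr was high in DMSO-sEV and non-adherent cells at 48 h, lower in adherent 27HC-sEV cells at 48 h together with DMSO-sEV and non-adherent cells at 72 h, and lowest, again apart, in adherent 27HC-sEV cells at 72 h. Gclc was apart from its neighbour only at the bottom, in DMSO-sEV cells at 72 h, and the neighbours of Keap1, Nqo1, Gclm and Prdx1 all overlapped.

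Among 9156 other genes, those nearest in pattern were taken as the smallest root mean square difference in log2 CPM over the 6 group means, each gene centred on its own mean. Nearest to Nfe2l2 were Baiap2l1 (0.012), Erbin and Prrc1, to Srxn1 Repin1, Dnajc13 and Vps18, to Txnrd1 Dnal4, Supt5 and Kri1, and to Prdx1 Glrx3 (0.017), Psma5 and Sf3b6. Nearest to Hmox1 were Prickle1, Plekho1 and Atf5 at 0.19 to 0.20. The distance is absolute and grows with a gene's own spread, which over the 6 groups was 0.75 for Hmox1, 0.28 for Nfe2l2 and 0.44 for Prdx1, so distances do not rank the 10 genes by how well they were matched. For Keap1 they were Ap1g1, Gsk3a and Fto, for Nqo1 Ufl1, Cast and Zscan29, for Gclc Cipc, Kansl2 and Amz2, for Gclm Pik3cb, Wars and Tbcd, and for Gsr Pole, Ticrr and Ckap5. None of these names belongs to the 10 genes.

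Genes whose products partner, compete with or turn over NRF2 included large rises under 27HC-sEVs. Of 15 such genes, 7 rose and 1 fell in adherent cells at 48 h, and 11 rose and 4 fell at 72 h, with medians of 0.16 and 0.25, against the shares of all genes given above. Sqstm1, whose product p62 binds KEAP1 and takes it to autophagy, went from 351 ± 22.3 to 1040 ± 88.2 CPM at 48 h (SD, n = 5 each) and from 467 ± 36.1 to 985 ± 28.3 CPM at 72 h, log2 fold changes of 1.57 (SE 0.06) and 1.08 (SE 0.06). Mafg, a small MAF partner, rose by 0.49 at 48 h and by 0.65 at 72 h. Nfe2l1, a relative of Nfe2l2 known for driving proteasome genes, rose by 1.06 at 72 h and differed by 0.20 at 48 h without passing. From 48 to 72 h Nfe2l1 went from 223 to 137 CPM in DMSO-sEV cells and from 257 to 287 CPM in adherent 27HC-sEV cells. The falls were led by Palb2 (-0.25 and -0.34) and, at 72 h, Rbx1 (-0.63), the RING subunit of the CUL3 ligase. From 48 to 72 h Rbx1 rose by 0.45 in DMSO-sEV cells and changed by -0.05 in adherent 27HC-sEV cells without passing. Between the fractions, where 25.7% of all genes rose and 28.4% fell at 48 h and 14.7% and 12.8% at 72 h, 5 of the 15 rose and 3 fell at 48 h, led by Syvn1 (0.52) and Mafg (0.41) against Rbx1 (-0.38) and Sqstm1 (-0.22), and 2 rose at 72 h, Mafg (0.41) and Btrc (0.15).

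Other known NRF2 targets were led by the cystine transporter. Of 24 tested, 11 rose and 5 fell at 48 h and 13 rose and 6 fell at 72 h in adherent 27HC-sEV against DMSO-sEV cells, with medians of 0.16 and 0.35, beside rises in 21.3% and 32.0% and falls in 22.7% and 33.4% of all genes. Slc7a11, the exchanger that imports the cystine used for glutathione, went from 14.9 ± 1.33 to 71.4 ± 8.98 CPM at 48 h and from 12.9 ± 0.978 to 86.7 ± 12.6 CPM at 72 h (SD, n = 5 each). Its log2 fold changes, 2.26 (SE 0.10) and 2.75 (SE 0.10), were above that of Hmox1. Gsta4, a glutathione transferase, rose 2.14-fold at 48 h and Abcc4, an efflux pump, by 1.40 on the log2 scale at 72 h. At 48 h Abcc4 differed by 0.15 without passing. From 48 to 72 h it went from 24.3 to 11.7 CPM in DMSO-sEV cells and from 27 to 30.8 CPM in adherent 27HC-sEV cells. Among the falls were Osgin1 (-0.83) and Blvra (-0.30), which reduces the biliverdin that heme oxygenase makes, at 48 h. At 72 h Blvra (-0.92) and Txn1 (-0.80) were among them. From 48 to 72 h Blvra and Txn1 rose by 0.60 and 0.42 in DMSO-sEV cells. In adherent 27HC-sEV cells they changed by -0.02 and -0.10 without passing. Between the fractions 3 rose and 9 fell at 48 h and 1 rose and 3 fell at 72 h, beside falls in 28.4% and 12.8% and rises in 25.7% and 14.7% of all genes. Aldh3a1, an aldehyde dehydrogenase, was the leading rise at both times (1.24 and 0.40), and the leading falls were Esd (-0.60) and Akr1b3 (-0.58) at 48 h and Blvra (-0.38) and Ptgr1 (-0.33) at 72 h. Slc7a11 and Esd stand also in the glutathione list and Txn1 in the thioredoxin list below.

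Most genes of NADPH supply fell. Of 13 genes, 8 fell and 1 rose at 48 h and 8 fell and 2 rose at 72 h in adherent 27HC-sEV against DMSO-sEV cells, with medians of -0.20 and -0.22, where 22.7% of all genes tested fell and 21.3% rose at 48 h and 33.4% fell and 32.0% rose at 72 h. Idh1, the cytosolic isocitrate dehydrogenase that makes NADPH, went from 287 ± 17.3 to 104 ± 7.31 CPM at 48 h and from 335 ± 37.6 to 78.4 ± 2.88 CPM at 72 h (SD, n = 5 each; log2 -1.47 and -2.09). Tkt, transketolase, fell by 0.77 and by 0.78. Mthfd2, of mitochondrial one-carbon metabolism, was the leading rise (0.64 and 0.50), with Nnt (0.24) at 72 h. From 48 to 72 h Nnt fell from 97.4 to 72.5 CPM in DMSO-sEV cells. In adherent 27HC-sEV cells it went from 92.7 to 85.9 CPM without passing. In non-adherent against adherent cells, where 28.4% of all genes fell at 48 h and 12.8% at 72 h, 7 fell and 1 rose at 48 h, Mthfd2 falling by 0.66 and Taldo1 by 0.28 while Nadk rose by 0.10, and 1 fell (Nadk2, -0.23) and 2 rose (Pgd, 0.17, and Nadk, 0.12) at 72 h.

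The wider glutathione and thioredoxin lists depended on the control libraries. Of 17 glutathione genes tested, 6 rose and 4 fell at 48 h and 5 rose and 10 fell at 72 h in adherent 27HC-sEV against DMSO-sEV cells, beside falls in 22.7% and 33.4% and rises in 21.3% and 32.0% of all genes. Chac1, which breaks glutathione down, rose by 2.32 (SE 0.12) and by 1.39 (SE 0.12). The peroxidase genes Gpx8 (-0.48 and -1.22) and, at 72 h, Gpx1 (-1.02) fell, as did Glo1 (-0.35) at 48 h. From 48 to 72 h Gpx8 and Gpx1 rose by 0.68 and 0.495 in DMSO-sEV cells. In adherent 27HC-sEV cells they changed by -0.05 and -0.21 without passing. At 72 h the list split as 7 rises and 7 falls with DMSO-sEV replicates 4 and 5 alone, and at 48 h as 7 rises and 1 fall with them or 6 and 7 with replicates 1 to 3 alone. Of 18 thioredoxin, peroxiredoxin and related genes, 2 rose and 7 fell at 48 h and 1 rose and 15 fell at 72 h, with medians of -0.22 and -0.46, beside the same shares of all genes. At 72 h Txnip (-1.13), an inhibitor of thioredoxin, and Prdx2 (-0.92), a cytosolic peroxiredoxin like Prdx1, led the falls. At 48 h Prdx3 and Txn2, both mitochondrial, each fell by 0.42 while Sesn3 rose by 0.34. At a lower level, Sesn2 of the same list went from means of 2.97 to 9.37 CPM at 48 h and from 3.04 to 7.83 CPM at 72 h. With replicates 4 and 5 alone 10 fell at 72 h, and 4 rose and 5 fell at 48 h. Neither list is given here with length and GC offsets, though fold changes at 72 h moved with transcript length. Prdx1 itself was at -0.91 without the offsets and -0.54 with them at 72 h. From 48 to 72 h Txnip and Prdx2 rose by 0.88 and 0.645 in DMSO-sEV cells. In adherent 27HC-sEV cells they changed by -0.20 and -0.17 without passing.

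Most of the glutathione list was lower in detached cells at 48 h. Of all genes, 28.4% fell and 25.7% rose between the fractions at 48 h, and 12.8% fell and 14.7% rose at 72 h. In non-adherent against adherent cells 13 of the 17 glutathione genes fell and 1, Glrx (0.32), rose at 48 h, led down by Chac2 (-0.87) and Gpx4 (-0.64), the phospholipid peroxidase, and 3 fell at 72 h, led by Gpx8 (-0.63) and Ggct (-0.52). With length and GC offsets 9 fell at 48 h. Of the thioredoxin list 9 fell and 1 rose at 48 h, Prdx2 falling by 0.59 and Prdx3 by 0.49 while Txnip rose by 0.71, and 3 fell and Txnip (0.61) rose at 72 h, with Prdx4 (-0.46) and Txnl1 (-0.29) leading the falls. With the offsets 1 of the list passed at 72 h, a rise. Of 6 superoxide dismutase, catalase and related genes, 3 fell at 48 h, Sod2 by 0.26 and Park7 by 0.21 among them, and 4 fell and 1 rose at 72 h, Park7 by 0.50 and Sod1 by 0.45, in adherent 27HC-sEV against DMSO-sEV cells, where 22.7% and 33.4% of all genes fell. Between the fractions 4 fell and 1 rose at 48 h, Park7 by 0.45 and Ccs by 0.30, and at 72 h the smallest adjusted p was that of Park7 (0.090). With the offsets 1 of the 6 passed at 48 h, a rise. From 48 to 72 h Park7 and Sod1 rose by 0.20 and 0.31 in DMSO-sEV cells, and neither passed in adherent 27HC-sEV cells.

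Of 13 genes of the NADPH oxidases, enzymes that make superoxide or hydrogen peroxide, 3 were high enough to test. Nox4 was lower in non-adherent than in adherent cells, at 5.49 ± 0.178 against 11.2 ± 0.870 CPM at 48 h (SD, n = 5 each) and 5.63 ± 0.249 (n = 4) against 11.2 ± 1.13 CPM (n = 5) at 72 h, log2 differences of -1.02 (SE 0.07) and -0.99 (SE 0.08). Cyba, the p22phox subunit, was lower by 0.77 and by 0.63 in non-adherent than in adherent cells. In adherent 27HC-sEV against DMSO-sEV cells it was lower by 0.64 at 72 h. From 48 to 72 h Cyba went from 59.4 to 102 CPM in DMSO-sEV cells and from 63.9 to 65.4 CPM in adherent 27HC-sEV cells.

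**Figure D5:**
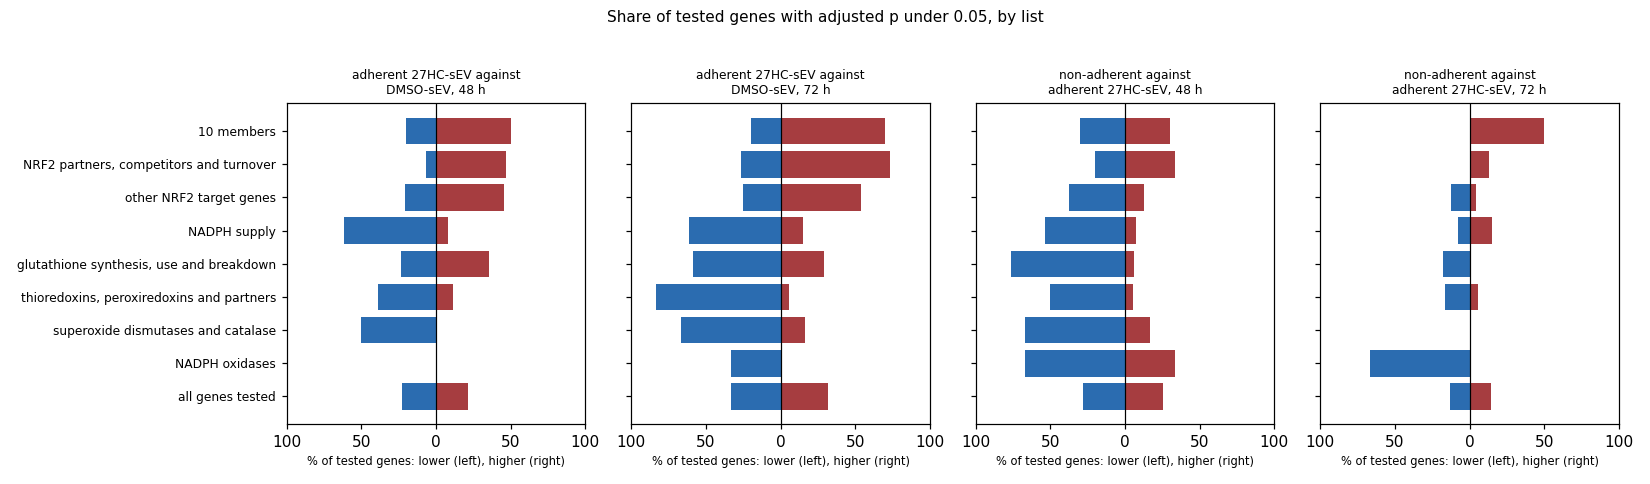
Share of tested genes (x axes, %) that fell (left, blue) or rose (right, red) with an adjusted p under 0.05, for the 10 genes, each related list and all genes tested, in 4 comparisons: 27HC-sEV against DMSO-sEV adherent cells, and detached against adherent cells, at both times. Thioredoxin-related genes reach 15 of 18 falling at 72 h and glutathione genes 13 of 17 at 48 h in non-adherent cells, beside 33.4% and 28.4% of all genes. All shares are without length and GC offsets.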

How the data were processed

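The 10 genes, the related lists, the comparisons and the alternatives were chosen with earlier results of these data known. Deposited by the authors were estimated counts per gene and TMM-normalized log2 CPM, per the file headers. The submitters' processing notes list Salmon 1.10.0 beside GRCm39 and mm39, without roles. Per the labels' protocols the libraries hold polyadenylated RNA, and whether reads were counted by strand is not given in the sources used here. Of the deposited estimated counts, 40.8% of values were not whole, and all were rounded. The deposited log2 values served in an alternative. Replicate 5 of non-adherent cells at 72 h, an outlier the authors removed per the labels, was not analysed here.

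The filter was filterByExpr of edgeR with a count of 10 and a total of 15 as minima, which left 13008 of 39253 genes. All 6 groups, scaled by TMM, entered 1 quasi-likelihood fit (glmQLFit, robust) with two-sided glmQLFTest, and p-values were adjusted by Benjamini-Hochberg across the 13008 genes and called below 0.05. Standard errors are the absolute log2 fold change over the square root of F, and log2 CPM has a prior count of 2. Whether a replicate is a culture or a vesicle batch of its own is not in the labels, so the p-values reflect the spread among libraries, possibly technical. Between the DMSO-sEV libraries of 48 and 72 h all 5 correlations of deviations by replicate number were over 0.1, from 0.17 to 0.79. For 3 of the 5 the best match was the same number. Adherent 27HC-sEV cells at 48 h and DMSO-sEV cells at 72 h had 4 of 5 over 0.1, the highest 0.794. The split of replicates 1 to 3 from 4 and 5 was in both DMSO-sEV groups, so pairing by number cannot be told apart from it. Values for all 10 genes are given in every comparison. Of each related list, those named are the called genes with the 2 largest rises and falls and mean log2 CPM of at least 3, and a few group values or other members were added after their values were seen. Length and GC offsets use the longest GENCODE M21 transcript, matched by symbol for 12225 of 13008 genes, as splines of 4 degrees of freedom per library fitted to 10637 genes. The test was checked on simulated counts for adherent 27HC-sEV against DMSO-sEV cells at 48 h. It recovered 52% of 1.25-fold, 96% of 1.5-fold and 100% of 2-fold changes, and 4.4% of calls were false. The simulated counts held neither the split of the controls nor the trend with length. Changes under 1.25-fold, as many here were, can thus be missed. Alternatives also covered other size factors, DESeq2, limma-voom, limma-trend, other filters, a replicate block and leaving out each library. The software was DESeq2 1.42.0, limma 3.58.1 and edgeR 4.0.16 in R 4.3.3.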

Additional observations from a re-analysis of the deposited data

Results flagged for a closer look

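No single library stood apart from its group in any of the 60 sets formed by the 10 genes and 6 groups. The rule set the gap between an extreme library and its neighbour against the range of the group. With 4 or 5 libraries a group it could miss libraries that deviate together, so it does not address the split of the controls. Prdx1 at 72 h, for example, held 1600 to 1900 CPM in DMSO-sEV replicates 1 to 3. Replicates 4 and 5 held 1040 to 1050 CPM and were not flagged. For 6 results the effect itself differed between times, by the test of that difference. In adherent 27HC-sEV against DMSO-sEV cells the log2 fold change was larger at 72 than at 48 h by 0.49 for Hmox1 (1.32 to 1.80), by 0.27 for Gclm (-0.13 to 0.14), by 0.20 for Txnrd1 (0.13 to 0.32) and by 0.17 for Gclc (0.06 to 0.23), and lower by -0.77 for Prdx1 (-0.14 to -0.91). The adjusted p was 0.0034, 0.0053, 0.016, 0.041 and 0.0012. For Gclm, Gclc, Txnrd1 and Prdx1 the control cells moved more than the adherent 27HC-sEV cells between the times, as their changes with time above show. In non-adherent against adherent 27HC-sEV cells the difference of Hmox1 changed by 0.50 (adjusted p = 0.016), from -0.44 to 0.06.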

How the results depend on the processing

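Of 2590 values of a single gene under an alternative, 2386 kept their direction and their side of the threshold, 58 that passed in neither fit changed sign (7 of them with length and GC offsets), 92 lost a call, 44 gained one and 10 that passed in at least 1 of the fits turned. All 10 turned with length and GC offsets: Keap1 at -0.29 (adherent against DMSO-sEV cells, 72 h), -0.11 (non-adherent against adherent, 48 h), -0.20 and -0.25 (non-adherent against DMSO-sEV, 48 and 72 h), 0.088 (72 against 48 h, DMSO-sEV) and -0.21 (change of the 27HC-sEV effect with time), and Nqo1 at 0.24 and 0.17 (non-adherent against adherent, 48 and 72 h), -0.34 (72 against 48 h, DMSO-sEV) and 0.31 (change of the 27HC-sEV effect with time). The cause was not tested. The counts of the 10 genes called moved by over 1.5 times in few settings. With a fit of only the groups compared, 5 were called for 72 against 48 h in non-adherent cells and 2 for the change of the difference between fractions with time, and with the offsets the former was also 5. With no filter except 1 count, 0 were called for non-adherent against adherent cells at 72 h, where edgeR tested more genes and 5 of the 10 had an adjusted p under 0.05 in the filtered fit, and 3 for the change of the 27HC-sEV effect with time. Leaving out 1 library gave 3 to 6 calls for non-adherent against adherent cells at 72 h, the lowest without non-adherent replicate 3. With the replicate block 2 genes were called for the change of the difference between fractions, 7 (Gclc and Prdx1 added) for non-adherent against adherent cells at 72 h, and 6 for the change of the 27HC-sEV effect, while the other comparisons kept their counts. These results are limited by 4 or 5 libraries a group, by the divided control libraries and the trend with transcript length.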
